A study of Mus musculus with 8 samples.

Results

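Immediate-early genes are switched on within minutes of a stimulus and without new protein synthesis. The 10 genes described here are Fos, Fosb, Jun, Junb, Jund, Atf3, Egr1, Ier2, Btg2 and Zfp36, chosen by gene name from a deposited table of 37447 genes. Each name matched 1 row, and all 10 were among the 17753 genes tested, whose mean reached 1 FPKM. FPKM (a fragment count divided by transcript length and by the size of the library) is a level per length, which allows for genes of unlike length. The RNA was amplified before sequencing, and the effect of that step on levels between genes was not tested. Fosb and Jund passed that minimum only through FFC, where they averaged 1.89 and 4.70 FPKM, against 0.368 and 0.824 FPKM in FF. The source was microglia, the macrophages that live in brain and nerve tissue, flow sorted from the optic nerves of C57BL/6 mice at 3 months of age. FFC mice carry floxed Nf1 alleles (Nf1 flox/flox) together with GFAP-Cre, a recombinase driven by an astrocyte promoter. FF mice carry the floxed alleles without Cre, so both groups have the alleles and differ in the transgene. There were 4 libraries of each genotype, FFC 1 to FFC 4 and FF 1 to FF 4, and numbers 1 and 4 were females and 2 and 3 males in both. The comparison asks what differs in microglia when the astrocytes around them lose Nf1. The labels do not say if a library came from 1 animal or from several, so the p-values measure the spread between these libraries.

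Fos and Jun proteins pair through leucine zippers to form AP-1, a transcription factor that binds DNA as a dimer. Fos and Fosb need a Jun partner, whereas Jun, Junb and Jund can also pair with each other. Atf3 belongs to the same zipper superfamily, and Egr1 is a zinc finger transcription factor. Kinases of the ERK, p38 and JNK cascades induce most of these genes through serum response factor, its ternary complex partners and CREB. Btg2 and Zfp36 close the response, since both bring deadenylases to mRNA. In microglia the family is known to respond to inflammatory and growth factor signals and also to tissue dissociation.

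The 250 bases before the transcription start were available for 8 of the 10 genes in RefSeq (GRCm38.p6, a later build than that of the expression table), and Egr1 and Ier2 were not among them. Those of Fos, Junb, Btg2 and Zfp36 are shown, of which Fos, Junb and Btg2 share the element TGACG. They are read 5′ to 3′ on the strand of the gene. Capitals mark TGACG, the half-site that CREB and related factors bind, on either strand, and also TATAAA and the CArG box, the site of serum response factor.
Fos, chr12:85473640-85473889, plus strand: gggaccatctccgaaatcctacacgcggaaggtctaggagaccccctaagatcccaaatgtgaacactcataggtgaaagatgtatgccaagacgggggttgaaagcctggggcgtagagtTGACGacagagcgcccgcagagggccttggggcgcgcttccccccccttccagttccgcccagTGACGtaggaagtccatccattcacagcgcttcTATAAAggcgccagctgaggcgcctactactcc
Junb, chr8:84978749-84978998, minus strand: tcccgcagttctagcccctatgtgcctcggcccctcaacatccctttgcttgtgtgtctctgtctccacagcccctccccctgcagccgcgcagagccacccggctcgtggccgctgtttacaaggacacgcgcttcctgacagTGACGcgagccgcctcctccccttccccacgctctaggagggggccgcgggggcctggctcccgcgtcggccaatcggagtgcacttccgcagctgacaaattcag
Btg2, chr1:134079156-134079405, minus strand: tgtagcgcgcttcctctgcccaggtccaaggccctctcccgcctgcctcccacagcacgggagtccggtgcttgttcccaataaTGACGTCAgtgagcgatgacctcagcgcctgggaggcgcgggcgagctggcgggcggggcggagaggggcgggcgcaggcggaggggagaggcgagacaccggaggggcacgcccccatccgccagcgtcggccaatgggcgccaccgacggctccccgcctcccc
Zfp36, chr7:28379229-28379478, minus strand: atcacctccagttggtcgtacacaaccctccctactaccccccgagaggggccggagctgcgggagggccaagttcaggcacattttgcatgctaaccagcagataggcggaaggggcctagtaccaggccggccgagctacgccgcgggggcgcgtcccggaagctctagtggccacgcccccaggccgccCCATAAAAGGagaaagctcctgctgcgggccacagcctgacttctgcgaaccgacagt
TGACG was found in 5 of the 8 windows, those of Fos, Fosb, Junb, Atf3 and Btg2, and in 17.8% of all 32851 windows of this length. Fos held it 129 and 66 bases before its start, with TATAAA at 33 bases, a motif in 12.4% of all windows and in 1 of the 8. In Btg2 half-sites on both strands overlap and make the full element TGACGTCA, which was in 1 of the 8 windows and 1.55% of all. The CArG box was in 1 of the 8, that of Zfp36, 58 bases before the start and sharing 1 base with the GC box GGGCGG, and in 1.47% of all. GGGCGG was in 6 of the 8 and 32.7% of all windows, CCAAT in 3 of the 8 and 33.8%, and the AP-1 site TGACTCA in 0 of the 8 and 4.46%. All motifs were searched on both strands. These matches are letters within a short window and say nothing of binding in these cells or of elements further upstream, which were not searched.

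All 10 genes had a higher mean in FFC than in FF microglia, with differences of mean log2(FPKM + 1) between 0.61 for Atf3 and 3.31 for Junb, while none passed the test over all genes. Of all tested genes 56.7% were higher on average in FFC and 43.3% lower. The median difference was 1.51 over the 10 genes and 0.19 over the 17753. Many of the 17753 are lower in level than most of the 10 genes. Among the 10245 genes whose mean reached 5 FPKM, 6610 were higher in FFC and the median was 0.38. It was 2.11 over the 7 of the 10 genes in that set. In each of the 10 genes the 4 highest libraries were FFC 2, FFC 3, FFC 4 and FF 3, and the 4 lowest were FFC 1, FF 1, FF 2 and FF 4, an order that 674 of the tested genes had (3.8%). This shared order was noticed in these data and is given as a description.

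**Figure D1:**
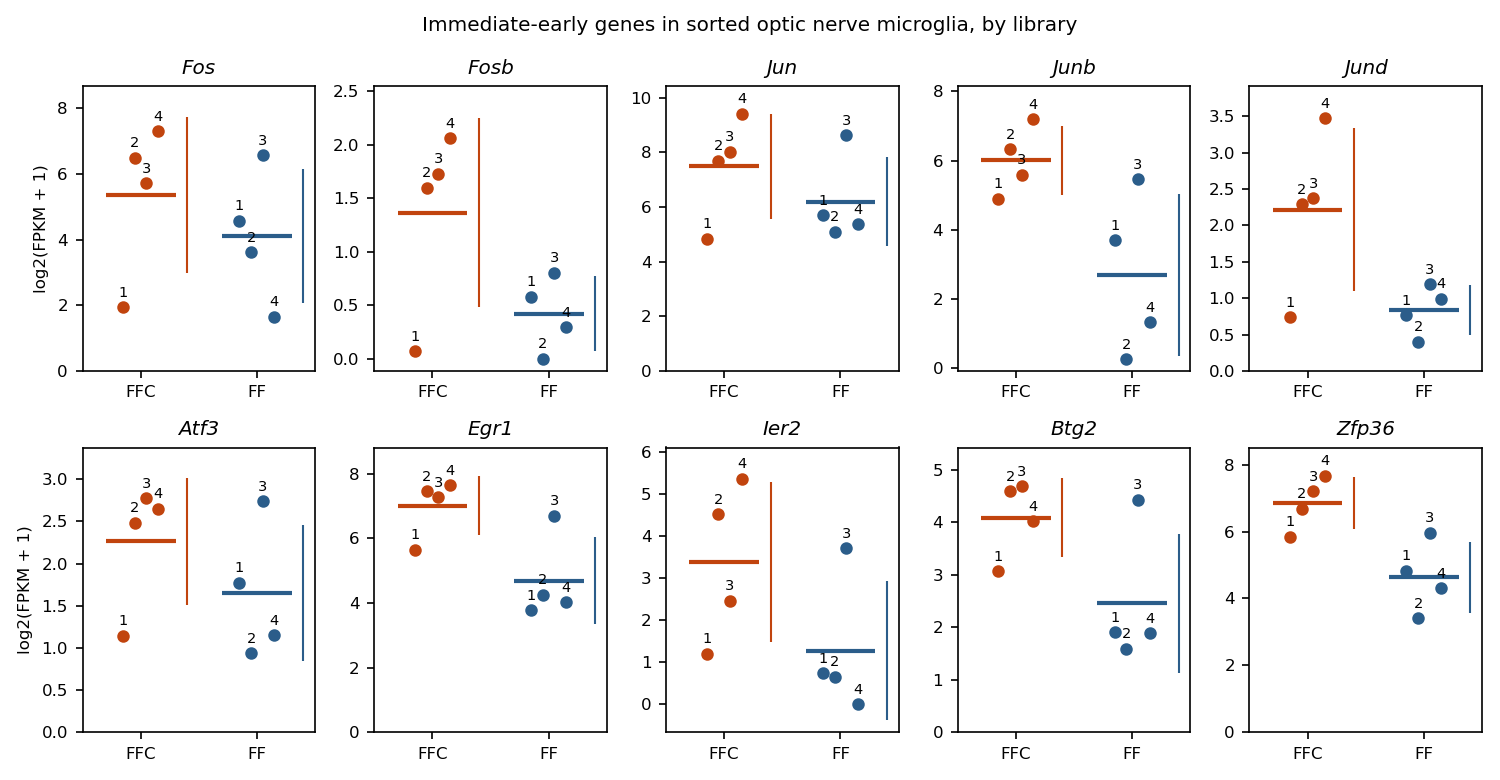
Level of each of the 10 genes as log2(FPKM + 1) on the y axis, in FFC libraries on the left and FF libraries on the right; each numbered point is a library, horizontal bars are means of 4 and vertical bars ± 1 SD. FFC 1 lies lowest in the FFC group for every gene and FF 3 highest in the FF group.

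**Figure D2:**
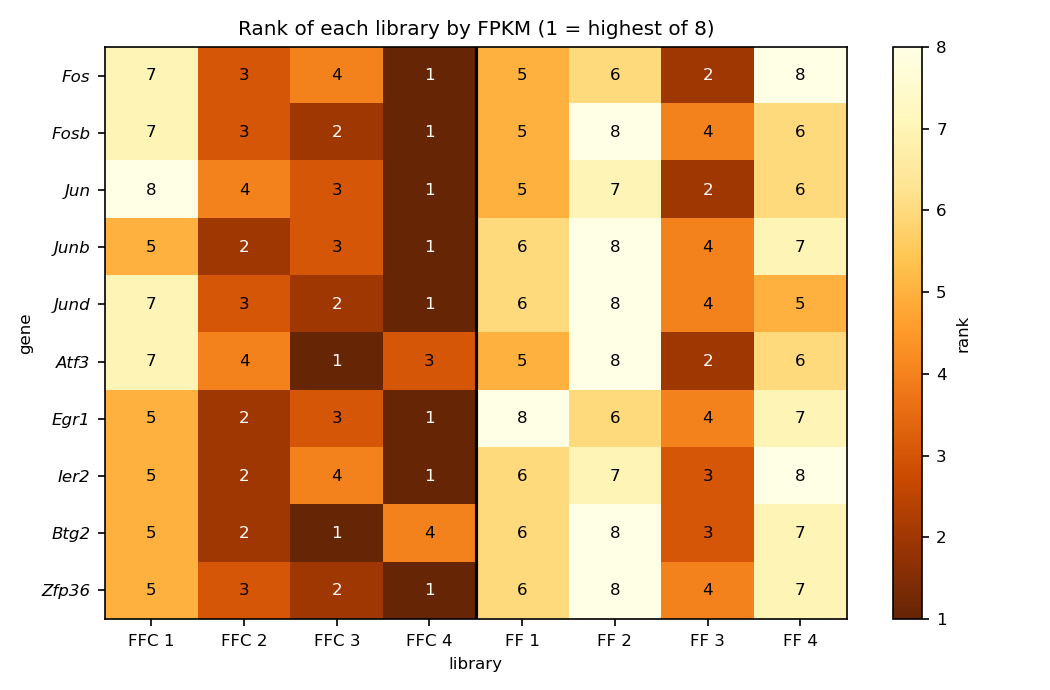
Rank of each of the 8 libraries (x axis) by FPKM for each gene (y axis), from 1 for the highest to 8 for the lowest, with FFC libraries left of the line. Ranks 1 to 4 fall in FFC 2, FFC 3, FFC 4 and FF 3 for all 10 genes.

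Before the single genes, the libraries themselves need a word. Summed FPKM lay between 525184 and 651231 in FFC and between 367760 and 700291 in FF, and with FPKM alone the number of reads behind each value is unknown. Olfactory and vomeronasal receptor genes, which microglia are not known to use, held 0.734% to 1.65% of FPKM in FFC. They held 1.86%, 4.55%, 1.70% and 3.59% in FF 1 to FF 4. Protein-coding genes held 90.4% of FPKM in FFC 4 and 58.5% to 72.6% in the other 7. All 17 markers of microglia on the list were measured, and their summed level was 7775 to 14113 FPKM in FFC and 2699.8 to 10109.8 FPKM in FF. None of the defining genes Tmem119, P2ry12, Cx3cr1 and Csf1r fell below 23.8 FPKM in any library, the value of Cx3cr1 in FF 2. In the sum of all cells of a library, fewer responding cells and less RNA per cell cannot be told apart.

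Among the Fos genes, Fos (ENSMUSG00000021250, chromosome 12, 86814840 to 86818223, build mm9) showed 2.84, 89.3, 51.3 and 156 FPKM in FFC 1 to FFC 4. It had 22.8, 11.3, 93.7 and 2.13 FPKM in FF 1 to FF 4. The genotypes overlapped over nearly their whole range, with FFC 1 below 3 of the FF libraries and FF 3 above 3 of the FFC libraries. The log2 difference was 1.26 ± 1.20 (SE; limma adjusted p = 0.768; exact two-sided permutation p = 0.429). Fosb (ENSMUSG00000003545, chromosome 7, 19888070 to 19895394), which encodes a close relative with the same pairing rules, was the lowest of the family. It had 0.0503, 2.03, 2.31 and 3.17 FPKM in FFC and 0.497, 0, 0.746 and 0.229 FPKM in FF, with a listed 0 in FF 2. Here FFC 2, FFC 3 and FFC 4 were above every FF library and FFC 1 was below 3 of them. The Fosb difference was 0.94 ± 0.73 (SE; limma adjusted p = 0.759; exact two-sided permutation p = 0.114).

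Jun (ENSMUSG00000052684, chromosome 4, 94715725 to 94718913), the partner that can act without Fos, was the most abundant of the 10. It had 27.6, 207, 260.1 and 677 FPKM in FFC and 50.8, 33.1, 396 and 40.5 FPKM in FF. Its lowest value of all was in FFC 1 and its second highest in FF 3, so the genotypes overlapped throughout (log2 difference 1.29 ± 0.97, SE; limma adjusted p = 0.759; exact two-sided permutation p = 0.400). Junb (ENSMUSG00000052837, chromosome 8, 87500811 to 87502617), a weaker activator that can oppose Jun, had 28.8, 79.4, 47.0 and 146 FPKM in FFC. It had 12.1, 0.209, 43.2 and 1.53 FPKM in FF. Of the 16 pairs of an FFC and an FF library, 15 had the higher Junb value in FFC, and the exception was FFC 1 against FF 3. The Junb difference of 3.31 ± 1.04 (SE) exceeded that of all but 0.389% of tested genes, with a limma adjusted p of 0.651 and an exact two-sided permutation p of 0.0571. Without FF 2 and FF 4, where Junb was lowest, the difference was 1.42 ± 0.80 (SE). With the share of olfactory and vomeronasal receptors as a covariate it was 0.48 ± 0.83 (SE). Jund (ENSMUSG00000071076, chromosome 8, 73221638 to 73224515), the member usually expressed without a stimulus, had 0.665, 3.88, 4.17 and 10.1 FPKM in FFC and 0.700, 0.320, 1.29 and 0.988 FPKM in FF. FFC 2, FFC 3 and FFC 4 exceeded every FF library, and FFC 1 was among the FF values (log2 difference 1.38 ± 0.82, SE; limma adjusted p = 0.759; exact two-sided permutation p = 0.114).

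The make-up of AP-1 mRNA within a library does not depend on how libraries are scaled. Jun held 46.0%, 54.2%, 71.3% and 68.3% of the summed FPKM of Fos, Fosb, Jun, Junb and Jund in FFC and 58.5%, 73.7%, 74.0% and 89.2% in FF. Junb held 48.1%, 20.8%, 12.9% and 14.7% in FFC and 13.9%, 0.466%, 8.06% and 3.38% in FF. FFC 3 was below FF 1 in this share, and the other 3 FFC libraries were above every FF library. The mean share of Junb was 24.1% ± 16.3 in FFC and 6.44% ± 5.86 in FF (SD, n = 4 each; exact two-sided permutation p = 0.0571). The difference of 17.7 percentage points was 21.4 without FFC 3 (exact two-sided permutation p = 0.0286) and 9.70 without FFC 1 (exact two-sided permutation p = 0.0857). It was 15.7 without FF 2, 18.2 without FF 3 and 16.7 without FF 4 (exact two-sided permutation p = 0.143 each). Without both FF 2 and FF 4 it was 13.2 (exact two-sided permutation p = 0.4). FFC 3 was the only FFC library below an FF value, so without it the genotypes had to separate. The p of 0.0286 is then the smallest that the reduced test can give. Shares of Fos were 14.5% ± 7.67 in FFC and 18.4% ± 9.93 in FF, and those of Jun 59.9% ± 11.9 in FFC and 73.9% ± 12.6 in FF (SD, n = 4 each; exact two-sided permutation p = 0.457 and 0.143). Shares of Jund were 0.241% to 2.18% and those of Fosb 0% to 0.633% over all libraries, with exact two-sided permutation p of 0.829 for Jund and 0.629 for Fosb. These 5 p-values are not adjusted for each other. The summed FPKM of the 5 genes was 59.9, 381, 365 and 992 in FFC and 86.9, 44.9, 535 and 45.3 in FF. FFC 1 thus had a low sum with the highest share of Junb, and FF 3 a high sum with a share of Junb inside the FF range.

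**Figure D3:**
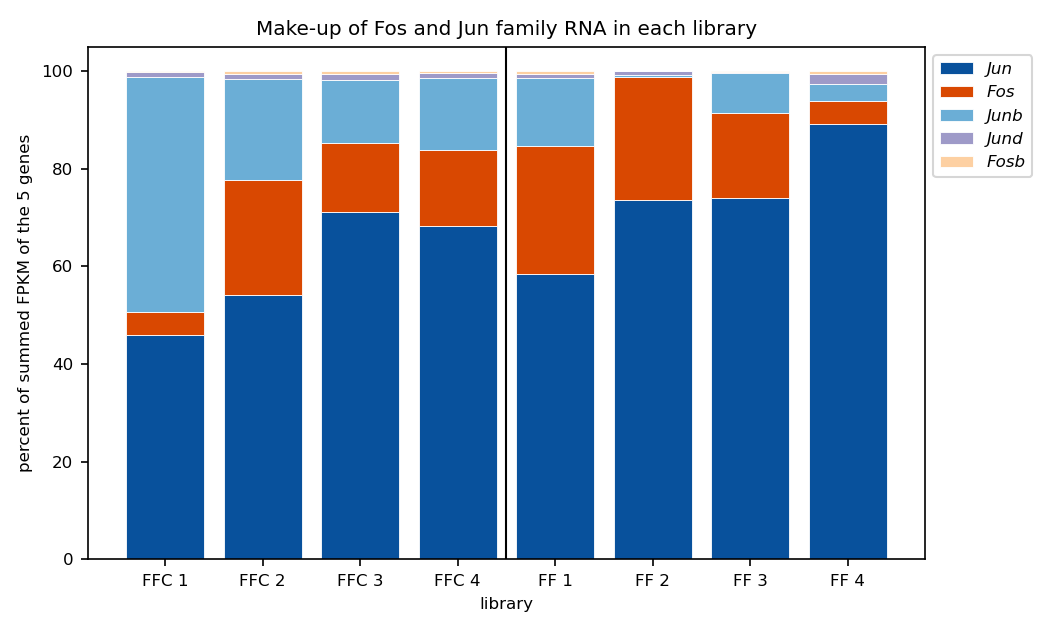
Percent of the summed FPKM of Jun, Fos, Junb, Jund and Fosb (y axis) held by each gene in each library (x axis), FFC left of the line and FF right of it. Jun holds the largest part in every library but FFC 1, where Junb holds 48.1%.

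Atf3 (ENSMUSG00000026628, chromosome 1, 192994175 to 193007219), a stress-induced zipper protein that often represses inflammatory genes, differed least. It had 1.21, 4.59, 5.82 and 5.27 FPKM in FFC and 2.42, 0.914, 5.68 and 1.22 FPKM in FF. FF 3 lay among the 3 high FFC libraries and FFC 1 among the 3 low FF libraries (log2 difference 0.61 ± 0.81, SE; limma adjusted p = 0.835; exact two-sided permutation p = 0.343). Egr1 (ENSMUSG00000038418, chromosome 18, 35019477 to 35024638), a direct target of ERK signalling, had 49.3, 175, 154 and 199.9 FPKM in FFC and 12.8, 18.1, 104 and 15.3 FPKM in FF. Every FFC library was above FF 1, FF 2 and FF 4, and only FFC 1 was below FF 3. The Egr1 difference was 2.31 ± 0.76 (SE; limma adjusted p = 0.692; exact two-sided permutation p = 0.0571). Ier2 (ENSMUSG00000053560, chromosome 8, 87185230 to 87186751), an immediate-early gene encoding a nuclear protein, had 1.31, 21.9, 4.51 and 40.1 FPKM in FFC and 0.661, 0.574, 12.1 and 0 FPKM in FF. FF 4 is listed at 0, and FF 3 was above FFC 1 and FFC 3 (log2 difference 2.11 ± 1.11, SE; limma adjusted p = 0.759; exact two-sided permutation p = 0.171).

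The genes whose proteins shorten mRNA followed the same libraries. Btg2 (ENSMUSG00000020423, chromosome 1, 135971747 to 135975697), an antiproliferative protein that binds the CCR4-NOT deadenylase, had 7.36, 23.1, 24.8 and 15.2 FPKM in FFC and 2.74, 2.02, 20.5 and 2.71 FPKM in FF. FF 3 was above FFC 1 and FFC 4, and all FFC libraries were above the other 3 FF libraries. The Btg2 difference was 1.64 ± 0.83 (SE; limma adjusted p = 0.759; exact two-sided permutation p = 0.0857). Zfp36 (ENSMUSG00000044786, chromosome 7, 29161803 to 29164274) encodes tristetraprolin, which binds AU-rich mRNAs such as that of Tnf and hastens their decay. It had 56.6, 101, 147 and 202 FPKM in FFC and 27.5, 9.69, 61.7 and 18.7 FPKM in FF. FFC 1 and FF 3 were close, at 56.6 and 61.7 FPKM, and were the 1 pair of 16 with the higher value in FF. The Zfp36 difference was 2.22 ± 0.69 (SE; limma adjusted p = 0.651; exact two-sided permutation p = 0.0571).

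Junb, Egr1 and Zfp36 were the 3 genes with an unadjusted limma p under 0.05 (0.00712, 0.00897 and 0.00647), against 4.52% of tested genes at that level and higher in FFC and 1.94% lower. Over all genes limma called 0 at an adjusted p under 0.05 (0% of tested genes; smallest adjusted p = 0.382) and 1146 had an unadjusted p under 0.05 (6.46%), and the exact permutation test also called 0 (smallest adjusted p = 0.659). The exact test cannot give less than 0.0286 with 4 against 4 libraries, and the 10 genes had adjusted permutation p-values of 0.718 to 0.906. Of the 10 genes 0 had all FFC values above all FF values, against 3.05% of tested genes. Without FFC 1 there were 5, Fosb, Junb, Jund, Egr1 and Zfp36 (5.74% of tested genes), and the unadjusted p was under 0.05 for 8 (4.73%). Fosb and Jund are in both of these counts although only their FFC values brought them into the test. Without FF 3 there were also 5, Junb, Egr1, Ier2, Btg2 and Zfp36 (6.54%), and the unadjusted p was under 0.05 for these 5 (5.5%). The median difference of the 10 was 2.29 without FFC 1 and 2.20 without FF 3. FFC 1 was the lowest FFC library and FF 3 the highest FF library for each of the 10 genes. Leaving out either therefore had to raise all 10 differences. The tested genes as a whole were not picked for that order, so their shares are not a like measure for these counts. When FF 2 and FF 4, in which the receptor share was largest, were left out, the median was 1.05, 9 of 10 genes had the higher mean in FFC (52.6% of tested genes) and 0 had an unadjusted p under 0.05 (2.24%). With the receptor share as a covariate the median was 0.45, 7 of 10 were higher (50.2%), and 0 had an unadjusted p under 0.05 (1.88%). Fos, Jun and Atf3 were the 3 with a negative difference there, and Junb had 0.48. Every FF library had a larger receptor share than every FFC library, so the fit with this covariate cannot fully tell the share from genotype. All 10 differences stayed positive under the 5 other scalings of the libraries.

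**Figure D4:**
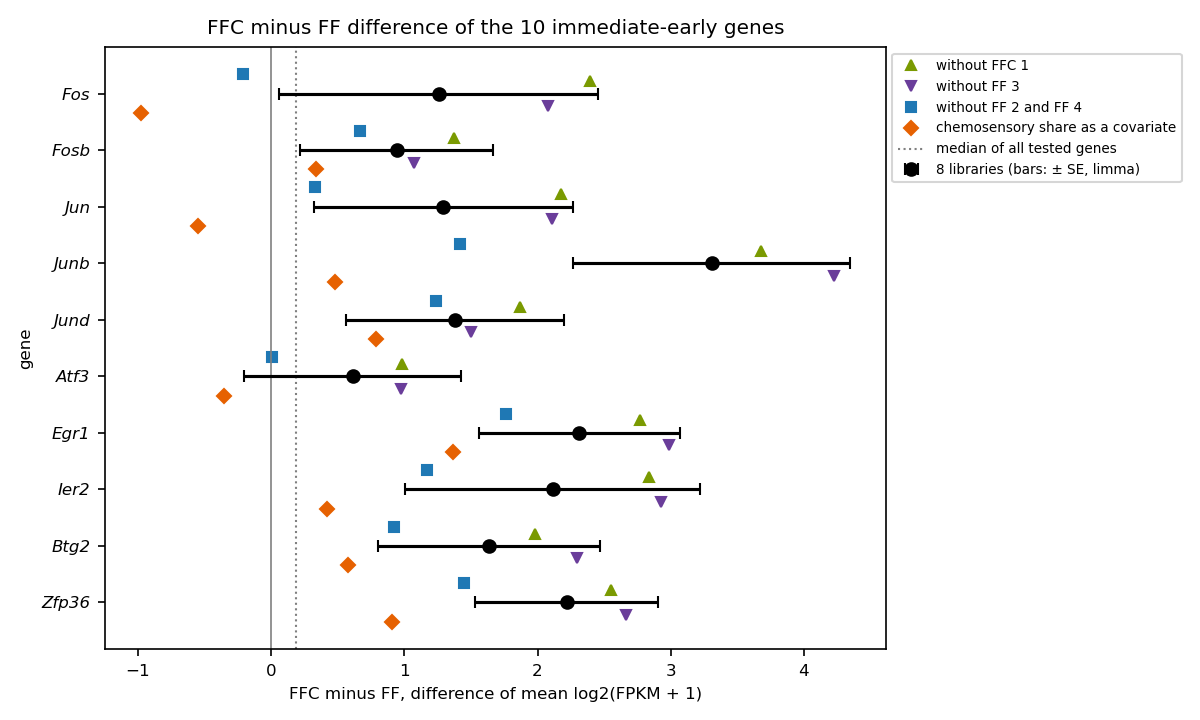
FFC minus FF difference of mean log2(FPKM + 1) (x axis) for each gene (y axis): black points with ± SE bars use the 8 libraries, coloured marks leave out libraries or add the chemosensory receptor share as a covariate, and the dotted line is the median of all tested genes. All black points are above 0, between 0.61 and 3.31; marks without FFC 1 or FF 3 lie to their right and the other 2 marks to their left.

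By level over the 8 libraries Jun came first, with a mean log2(FPKM + 1) of 6.85, followed by Egr1 (5.85), Zfp36 (5.74), Fos (4.73), Junb (4.35), Btg2 (3.27), Ier2 (2.33), Atf3 (1.96), Jund (1.53) and Fosb (0.89). The order differed by genotype in places, since Junb (6.00) was above Fos (5.36) in FFC and Atf3 (1.65) above Ier2 (1.27) in FF. Between neighbours in the order over all 8 libraries the within-library difference was larger than its SD for Jun over Egr1 (0.99, SD 0.95, higher in 7 of 8 libraries) and for Jund over Fosb (0.63, SD 0.36, higher in 8 of 8). The other 7 neighbouring pairs differed by less than the SD of their difference. Jun was above the 84th percentile of tested genes in every library, and its highest percentile was 99.3 in FFC 4. Egr1 ranged from the percentile 68.7 in FF 1 to 97.7 in FFC 2, Fos from 46.8 in FF 4 to 96.1 in FFC 4, and Junb from 18.4 in FF 2 to 95.8 in FFC 4. Such ranks within a library do not change with its scaling. Over all 10 genes the median percentile was 57.2, 87.4, 85.9 and 89.9 in FFC and 56.3, 36.1, 83.6 and 44.6 in FF.

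Sex and the month in the sample titles were the other labels that vary. All 10 genes had a higher mean in males, with genotype as a covariate (median 0.78, against 0.03 over all tested genes and 51.5% of them higher), and none passed (smallest limma adjusted p = 0.953 and smallest unadjusted p = 0.137). Limma called 0 of all tested genes between the sexes (0%), and 709 had an unadjusted p under 0.05 (3.99%). The genotype difference had a median of 1.61 in females and 1.42 in males, with 10 of 10 genes higher in FFC in both (52.3% and 57.4% of tested genes). Genotype by sex gave 0 calls (0%), with 567 tested genes at an unadjusted p under 0.05 (3.19%) and limma adjusted p of 0.9995 or above for the 10 genes. By month the groups were unequal, since FFC 1 was the 1 FFC library titled November and FF 4 the 1 FF library titled December. Within November 4 of the 10 genes were higher in FFC (41% of tested genes), with a median of -0.22, and within December 10 of 10 (64.3%), with a median of 2.94. The 4 higher in FFC within November were Junb (1.75), Zfp36 (1.11), Egr1 (0.73) and Btg2 (0.42). The November values rest on FFC 1 alone in FFC and the December values on FF 4 alone in FF, so month and single libraries cannot be told apart. With month as a covariate the median was 1.21.

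The wider immediate-early response did not show the same order throughout. Of 30 further immediate-early genes listed, 19 were tested, 14 were higher on average in FFC, 0 passed the adjusted test and the median difference was 0.62. For this and the list counts below, 56.7% of all tested genes were higher in FFC. Dusp1, a phosphatase that switches off p38 and JNK, was 1 of 3 with the order of the 10 genes, at 20.8, 159, 149 and 211 FPKM in FFC and 22.9, 3.26, 152 and 54.5 FPKM in FF (the others were Klf2 and Ier5, named after their values were seen). Ier3, an apoptosis regulator, had 15.7, 5.68, 23.8 and 23.7 FPKM in FFC and 0, 0.802, 21.5 and 0.296 FPKM in FF, so FFC 1 was high here. Ppp1r15a, a stress-induced phosphatase subunit, had its highest value in FFC 1, at 102 FPKM, and 47.7, 12.2 and 21.9 FPKM in the other FFC libraries, against 55.4, 0.419, 8.43 and 16.1 FPKM in FF. Egr3, a relative of Egr1, had 0.0356, 5.32, 14.6 and 1.14 FPKM in FFC and 19.6, 0, 9.34 and 0.0415 FPKM in FF (log2 difference -0.01; limma adjusted p = 0.999).

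Other AP-1 components and zipper partners were higher in 12 of 12 tested cases with a median of 0.68, and 0 passed the adjusted test. Atf4, the effector of the integrated stress response, did not overlap between the genotypes, at 38.8, 53.0, 45.3 and 91.5 FPKM in FFC and 34.6, 2.72, 21.6 and 24.0 FPKM in FF. Batf had 10.9, 16.5, 3.46 and 6.60 FPKM in FFC and 5.68, 0.359, 0.250 and 0 FPKM in FF. FFC 1 was the lowest FFC library for Atf4 but not for Batf, and FF 3 was the highest FF library for neither. Nab2, a corepressor that binds Egr1, had 23.2, 19.7, 42.3 and 26.7 FPKM in FFC and 3.20, 7.74, 6.47 and 14.2 FPKM in FF, also without overlap (limma adjusted p = 0.712).

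Kinases and transcription factors upstream of the family were higher in FFC in 15 of 18 tested cases, with a median of 0.42 and 0 that passed. Their mean log2(FPKM + 1) was 3.68, 4.24, 4.34 and 4.65 in FFC and 3.73, 3.62, 4.19 and 3.60 in FF, which put the same 4 libraries highest. The ERK kinase Mapk3 had 86.7, 107, 93.0 and 80.2 FPKM in FFC and 15.2, 28.5, 100.5 and 13.2 FPKM in FF. Relatives of Zfp36 and Btg2 and their deadenylases were higher in 10 of 10, with a median of 0.88 and 0 that passed; Btg1 had 5.69, 11.5, 27.3 and 7.21 FPKM in FFC and 2.61, 2.82, 5.84 and 0.868 FPKM in FF. Of 7 tested mRNAs that Zfp36 is known to bind, 6 were higher on average in FFC (median 2.59) and 0 passed. Ier3, also among the further immediate-early genes above, was 1 of these 7, and its own difference was that median. Tnf had 12.5, 17.0, 16.9 and 12.1 FPKM in FFC and 0.999, 0, 6.87 and 1.12 FPKM in FF, with a listed 0 in FF 2. Tnf in FFC 1 was thus as high as in FFC 4, while Zfp36 differed between those libraries at 56.6 and 202 FPKM.

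Microglia markers and heat shock genes were set beside the 10 genes, library by library. The mean log2(FPKM + 1) of the 10 genes was 2.94, 5.01, 4.78 and 5.68 in FFC and 2.84, 2.02, 4.62 and 2.10 in FF. That of the 17 microglia markers was 7.75, 8.16, 8.17 and 8.82 in FFC and 8.39, 6.67, 8.31 and 7.44 in FF. Csf1r, Tmem119, P2ry12, P2ry13 and Cx3cr1, 5 of the 17 markers, had the same 4 highest libraries as the 10 genes. Relative to the mean of the microglia markers in each library the median difference of the 10 genes was 0.99 and that of all tested genes -0.33. FF 1 had the second highest marker level of the 8 libraries and low values of the 10 genes. The 10 heat shock genes, a class that dissociation also induces, averaged 4.19, 4.30, 4.79 and 4.23 in FFC and 4.39, 3.71, 4.41 and 3.48 in FF. By this mean FFC 1 was close to FFC 2 and FFC 4, and FF 1 to FF 3. The mean mixes abundant genes such as Hspa8, at 262 to 995 FPKM, with Hspa1a, Hspa1b and Hspb1, which did not exceed 2.24 FPKM in any library. A response to dissociation was not tested with it. Dnajb1, a cochaperone and 1 of the 7 tested heat shock genes, had the same 4 highest libraries as the 10 genes, at 1.75, 17.1, 7.63 and 10.3 FPKM in FFC and 1.43, 1.07, 10.6 and 4.17 FPKM in FF. Neutrophil markers summed to 3.17, 555, 956 and 63.6 FPKM in FFC and 2456, 240.1, 385 and 193 FPKM in FF, and T cell markers to 15.9 to 58.9 FPKM in FFC and 34.1 to 476 FPKM in FF. FFC 4, which ranked first for 8 of the 10 genes, had the largest T cell sum in FFC, with 33.5 of its 58.9 FPKM from Cd4. Single T cell markers were mixed: Trac was lower in FFC 4 than in FFC 2 (7.27 and 19.0 FPKM) and Lck higher (5.96 and 0.386 FPKM). Of 8 T cell markers tested, 2 were higher in FFC and 6 lower (median -0.57). The neutrophil sums are mostly S100a8 and S100a9, except in FFC 4. Ly6g, 1 neutrophil marker, had 0, 16.8, 132 and 60.8 FPKM in FFC and is listed at 0 in all 4 FF libraries. It was thus present in the same 3 FFC libraries in which the 10 genes were high, but not in FF 3. S100a8 did not follow Ly6g, with 0 FPKM in FFC 4 and 975 FPKM in FF 1. Of 6 neutrophil markers tested, 2 were higher in FFC and 4 lower (median -1.63). Endothelial markers were higher in FFC in 2 of 7 tested (median -0.70), border macrophage markers in 0 of 5 (-0.64), mural and fibroblast markers in 1 of 5 (-1.21), monocyte markers in 2 of 5 (-0.45), B cell markers in 1 of 4 (-0.29), astrocyte markers in 3 of 6 (-0.04) and oligodendrocyte markers in 4 of 4 (0.49). None of these markers passed the adjusted test. The part of such cells in the values of the 10 genes was not tested.

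**Figure D5:**
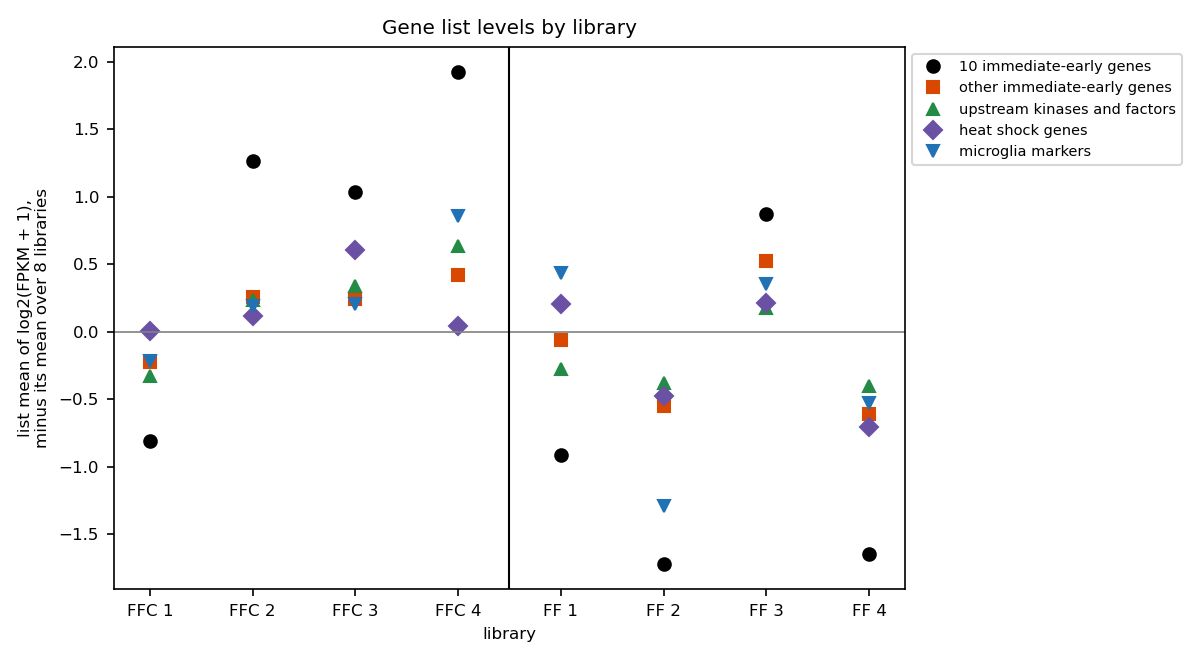
Mean log2(FPKM + 1) of 5 gene lists in each library, minus the list's mean over the 8 libraries (y axis), with FFC libraries left of the line and FF right of it. The 10 immediate-early genes span a wider range than the other lists shown and are high in FFC 2, FFC 3, FFC 4 and FF 3. Some of the other lists include genes too low to be tested, which narrows their range.

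The genes most like the family in pattern were found by the distance of their centred log2 values from the mean of the 10 genes, over 8 libraries and among 8107 other genes whose mean reached 5 FPKM. Rgs1, a regulator of G protein signalling, was closest, with a root mean square distance of 0.19. It had 9.37, 44.2, 33.4 and 74.0 FPKM in FFC and 6.20, 3.57, 32.0 and 3.50 FPKM in FF. Then came Timm8b, Cycs, Iscu, Fkbp3, Lmo2, Abi3, Agtpbp1, Nop14 and G6pdx, at distances of 0.41 to 0.50. The 10 genes themselves lay between 0.49 (Zfp36) and 1.16 (Junb) from their own mean, so Rgs1 was nearer to it than any of them.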

How the data were processed

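RNA of sorted microglia was extracted with TRIzol and amplified by Ovation before sequencing, per the labels' protocols. The authors deposited FPKM values for 37447 genes in 8 libraries, and 447 genes with a missing value were left out. The submitters' processing notes name build mm9, Cufflinks 2.0.2, Bowtie2 2.0.0, TopHat2 2.0.4 and CASAVA 1.8.2, without roles, annotation or settings. A listed 0 can be a failed estimate. Positions are those of the deposited table, counted from 1.

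Values were used as log2(FPKM + 1), a scale that understates changes of low genes. Genes whose mean reached 1 FPKM were tested with limma 3.58.1 in R 4.3.3 (two-sided, empirical Bayes with intensity trend, p adjusted by Benjamini-Hochberg over all tested genes, threshold 0.05), with all 8 libraries and no covariate. Exact two-sided permutation tests used the 70 arrangements of 4 and 4 libraries. limma was tested on simulated data. Python 3.11.15, numpy 2.4.6, pandas 2.3.3 and matplotlib 3.10.9 did the rest. GENCODE M21 gave gene types by Ensembl identifier. Where a symbol had 2 rows (Atf7, Tob2), the row with the higher mean was used.

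The members and lists were chosen with earlier results of these data known. Named were the 10 genes, up to 4 genes per list by smallest p, and the 10 genes nearest in pattern, leaving out predicted genes, small RNAs and pseudogenes; the others were named after their values were seen. Alternatives were pseudocounts, filters, scalings, variance options, covariates, the replicate block and leaving out libraries. Scaling to protein-coding genes was added after seeing the data.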

Additional observations from a re-analysis of the deposited data

Results flagged for a closer look

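In FF, library FF 3 lay far from the other 3 for 3 of the 10 genes, in a check of each genotype's 4 libraries by the gap to the nearest one. Its log2(FPKM + 1) was 8.63 for Jun, 6.71 for Egr1 and 4.42 for Btg2. Of 30 groups of 4 values checked, AP-1 shares included, these 3 stood out. Chance alone gives about 1 in 20 for independent groups. These groups reuse the same 8 libraries and all 3 are FF 3, so that rate is not a like measure. Without FF 3 the differences of these genes between FFC and FF were 2.10, 2.99 and 2.29, against 1.29, 2.31 and 1.64 with it. FF 3 was the highest FF library for all 3, so leaving it out had to raise them.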

How the results depend on the processing

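Over 24 alternatives 233 of 237 single-gene differences between FFC and FF kept their sign, and 0 passed the adjusted limma test (smallest adjusted p = 0.471). Not all alternatives could change a difference. Other expression filters, the robust variance option, sex as a covariate and the replicate block returned the same differences as the main fit (1.26 for Fos). All alternatives also reuse the same libraries. With the receptor share as a covariate the differences of Fos, Jun and Atf3 were -0.98, -0.55 and -0.35, and without FF 2 and FF 4 that of Fos was -0.21. The median of the 10 genes ranged from 0.45 to 2.29. The number of the 10 with an unadjusted p under 0.05 was 3, was 0 with that covariate and 0 without FF 2 and FF 4, and ranged from 3 to 8 with 1 library left out. The number without overlap was 0, was 1 (Zfp36) under upper-quartile scaling, 1 with equal sums and 1 relative to microglia markers, and ranged from 0 to 5 with 1 library left out. The cause of these shifts was not tested. Genes called between FFC and FF ranged from 0 to 1 with 1 library left out (SNORA65 without FFC 4, Mir15a without FF 1). Between the sexes the number ranged from 0 to 3 with 1 library left out and was 4 without FF 2 and FF 4, and for genotype by sex it ranged from 0 to 1 and was 6 without the expression filter. None of these were among the 10 genes. The share of higher genes among those with an unadjusted p under 0.05 was 70.0%, 27.1% relative to microglia markers and 53.5% scaled to protein-coding genes. Replicate numbers are shared between the genotypes, but same-numbered libraries did not deviate together (correlations of -0.0516 to 0.0344). A replicate block cannot change the differences, as both genotypes hold every number, so the median of the 10 genes was again 1.51. With the block the number with an unadjusted p under 0.05 was 3, and 0 genes were called. With 1 library left out, the difference in the share of Junb ranged from 9.7 to 21.4 percentage points (21.4 without FFC 3). That of Jund ranged from -0.160 without FF 3 to 0.485 without FF 4 (exact permutation p = 0.0286) and was -0.00284 without FF 2. The p of 0.0286 is the smallest that this test can give with 1 library left out. The difference in the share of Fosb ranged from -0.0134 without FF 2 to 0.191 without FFC 1. FPKM values hold no counts, so the depth behind low members such as Fosb, Jund and Ier2 is unknown.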
